A study of Mus musculus with 8 samples.

Results

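The kinases and phosphatases described here are 10 genes listed for their part in building and driving sperm. They comprise the testis-specific serine kinases Tssk1, Tssk2, Tssk3, Tssk4 and Tssk6, the calmodulin-dependent kinase Camk4, the casein kinase 2 catalytic subunit Csnk2a2, the protein phosphatase 1 catalytic subunit Ppp1cc, and the calcineurin subunits Ppp3cc (catalytic) and Ppp3r2 (regulatory). They were listed by function, with earlier results of these data known, and their probe sets were found by gene symbol in the deposited expression table. All 10 genes had a probe set, a group of short oligonucleotides on the array that reads 1 transcript or a few. Among 20723 gene symbols in the table these are 10, and they had 21 probe sets together, of 45101 on the array, with 16 for the 7 kinases and 5 for the 3 phosphatase subunits.

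The study compared testis RNA of mice at postnatal day 23 with and without CTCFL, a zinc finger protein of male germ cells related to CTCF, at an age chosen to precede cell loss in the mutant. Each sample's total RNA was labelled and read on an Affymetrix Mouse430_2 array of its own. Titles assign replicates 1, 2, 4, 6 and 7 to wildtype (n = 5) and replicates 3, 5 and 8 to the Ctcfl mutant (n = 3). In the study's text the mutants are Ctcfl del/del animals, in which a GFP coding sequence takes the place of the deleted exons, on a C57/Bl6 background. That text describes the comparison animals as heterozygous Ctcfl del/+ littermates, so they may carry 1 deleted allele. The name in the labels, wildtype, is used below. Nothing in the labels says whether a sample is 1 animal or a pool, so p-values measure the spread between these samples. Ctcfl itself was not analysed here, and the genotype labels had no check from it.

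Spermatids are the haploid cells that remake themselves into sperm, and much of this remodelling runs on proteins that are already present, switched by phosphorylation. TSSK kinases are made almost only in these cells, and several are needed for male fertility. Calcineurin, which answers to calcium through calmodulin, and a germ cell form of protein phosphatase 1 act in the opposite sense on sperm proteins and on sperm movement. Camk4, Csnk2a2 and Ppp1cc are also used outside the testis, and with 1 tissue measured the specificity of none of the genes could be examined.

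Levels are given on the log2 scale after RMA, so a difference of 1 is a doubling of signal. Different probe sets bind with different strength, and levels are therefore compared between arrays for 1 probe set and not between genes. The median level of an array lay between 6.40 and 6.45. Most testis cell markers lay above the median level of all probe sets (6.43) on their main probe set. These were all 12 spermatid, all 9 spermatocyte and all 8 Sertoli cell marker genes. So did 6 of 7 spermatogonia, 4 of 5 Leydig and 4 of 5 peritubular markers, and none of 4 epididymis markers did. Since 22550 of the 45101 probe sets lie above this median, such a level alone does not show that a cell type was present. Of 6 fat cell markers 4 lay above it too. On the first principal component of all probe sets (44.9% of the variance), 2 arrays separated from the remaining 6, wildtype 7 with a score of 40.2 and mutant 8 with 38.2, against -24.8 to -3.10. This pair holds 1 array of each genotype, was found from the expression values and is named by no label. Genotype comparisons of the 10 genes are therefore also given without the pair or with the pair as a block in the fit, and those of the lists by their counts with the block.

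Promoter sequences of Tssk1, Tssk2, Tssk6 and Ppp3r2 are shown because the first 3 genes rose in the same 2 arrays described below and the last did not. RefSeq's table for GRCm38.p6 held promoters for 8 of the 10 genes, in windows of 250 bases before and 50 after the start of transcription. Camk4 and Ppp3cc were not in it. The 120 bases before each start are printed 5′ to 3′ on the strand of the gene. Capitals mark TGACTTCA or GGGCGG on either strand. Tssk1 lies at chr16:17894083-17894202 on the plus strand, Tssk2 at chr16:17898517-17898636 on the plus strand, Tssk6 at chr8:69902064-69902183 on the plus strand and Ppp3r2 at chr4:49681984-49682103 on the minus strand.
Tssk1: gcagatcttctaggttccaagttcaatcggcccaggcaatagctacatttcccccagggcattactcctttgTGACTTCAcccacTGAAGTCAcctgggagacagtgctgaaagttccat
Tssk2: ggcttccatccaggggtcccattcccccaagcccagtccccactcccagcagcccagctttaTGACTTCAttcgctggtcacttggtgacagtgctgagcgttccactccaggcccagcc
Tssk6: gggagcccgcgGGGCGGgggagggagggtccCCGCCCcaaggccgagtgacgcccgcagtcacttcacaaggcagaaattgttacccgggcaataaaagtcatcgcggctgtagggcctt
Ppp3r2: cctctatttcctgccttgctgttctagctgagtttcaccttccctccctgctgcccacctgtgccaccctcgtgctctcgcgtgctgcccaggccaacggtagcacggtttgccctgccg

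Tssk1 and Tssk2 are neighbouring genes, and the longest run shared by the 2 stretches above is gacagtgctga, 11 bases that begin 20 bases before the start of Tssk1 and 33 before that of Tssk2. Of 32851 promoters in the table, 6 hold this run. TGACTTCA, a motif picked after the sequences had been seen, begins 48 bases before the Tssk1 start and again, on the other strand, 35 bases before it, and 58 bases before the Tssk2 start. It was in 1.52% of all promoters and in 2 of the 8. TGACGTCA, the palindromic element through which cAMP-responsive factors such as CREM act, was in 1.79% of all promoters and in 0 of the 8. TATAAA, the TATA box, was in 13.6% of all promoters and in 0 of the 8. GGGCGG, the GC box, was in 35.7% of all promoters and in 3 of the 8, with 7 matches for Ppp1cc, 3 for Csnk2a2 and 2 for Tssk6. GC content of the 300-base windows ran from 43.3% for Tssk4 to 73.0% for Ppp1cc and Csnk2a2, against a median of 52.7% over all promoters. All searches covered both strands of the 300-base windows, and the matches printed above do not overlap each other.

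TSSK transcripts differed far more between 2 arrays and the rest than between genotypes. Tssk1 (probe set 1417989_at) and Tssk2, 2 kinases that act together in remodelling spermatids, had the same order of arrays at both ends. Tssk1 read 9.77, 9.86, 9.88, 9.89 and 10.51 in wildtype replicates 1, 2, 4, 6 and 7, and 9.38, 9.81 and 10.47 in mutant replicates 3, 5 and 8. Tssk2 (1449489_at) read 9.24, 9.42, 9.54, 9.52 and 10.56 in wildtype and 8.85, 9.33 and 10.39 in mutant testis. For both genes wildtype 7 and mutant 8 were the highest arrays and mutant 3 the lowest, and the genotypes overlapped. Tssk1 averaged 9.98 ± 0.30 in the 5 wildtype arrays (SD, here and below) and 9.89 ± 0.55 in the 3 mutants, a difference of -0.10 (SE 0.24) with a 95% interval of -0.62 to 0.43. Tssk2 averaged 9.66 ± 0.52 and 9.52 ± 0.79, a difference of -0.14 (SE 0.36) with an interval of -0.94 to 0.67. Neither difference passed the test, with an adjusted p of 1.0 in limma for both and exact permutation p = 0.786 for each (two-sided, 56 splits, smallest possible 0.0357).

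Tssk3 and Tssk4 followed the same pattern on 1 probe set each. Tssk3, a kinase of late spermatids, was read by 2 probe sets, and the one with signal well above the dim range, 1418557_s_at, may also bind related transcripts. It gave 8.07, 8.13, 8.25, 8.42 and 9.28 in wildtype and 7.62, 8.27 and 9.30 in mutant arrays. Tssk4 (1432101_a_at), a kinase of the sperm tail that acts on the outer dense fibre protein ODF2, gave 9.11, 9.28, 9.35, 9.41 and 9.89 in wildtype and 8.82, 9.38 and 9.91 in mutant. Again the 2 arrays of the pair were highest, mutant 3 was lowest and the genotypes overlapped. The genotype difference was -0.04 (SE 0.37, interval -0.86 to 0.79) for Tssk3 and -0.04 (SE 0.23, interval -0.56 to 0.49) for Tssk4. The other Tssk3 probe set, 1432397_at, which the rule for main probe sets prefers because its ID marks no cross-hybridisation, stayed dim at 4.38 to 4.79 and its pair of arrays was not raised (wildtype 7 at 4.52, mutant 8 at 4.63). Its genotype difference was -0.06 (SE 0.10). Dim probe sets of Tssk4 differed by 0.02 (1438486_at, SE 0.15) and -0.09 (1443810_at, SE 0.10), and the first of them was also highest in the pair (5.28 and 5.44 against 4.75 to 5.25).

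Tssk6, the kinase whose loss disturbs the replacement of histones in condensing spermatids, had the widest spread of all 21 probe sets, 2.61 on the log2 scale. Its probe set 1418956_at read 5.80, 5.80, 6.07, 5.96 and 7.94 in wildtype and 5.90, 5.33 and 7.47 in mutant testis. Wildtype 7 was 4.1-fold above the mean of the other 4 wildtype arrays and mutant 8 was 3.62-fold above the mean of the other 2 mutants. Mutant 5, not mutant 3, was lowest. This probe set lay below the median level of all probe sets, 6.43, on every array but the pair. The group means, 6.31 ± 0.92 and 6.24 ± 1.11, differed by -0.08 (SE 0.57), and the interval, -1.34 to 1.19, is wide enough to hold a doubling in either direction.

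**Figure D1:**
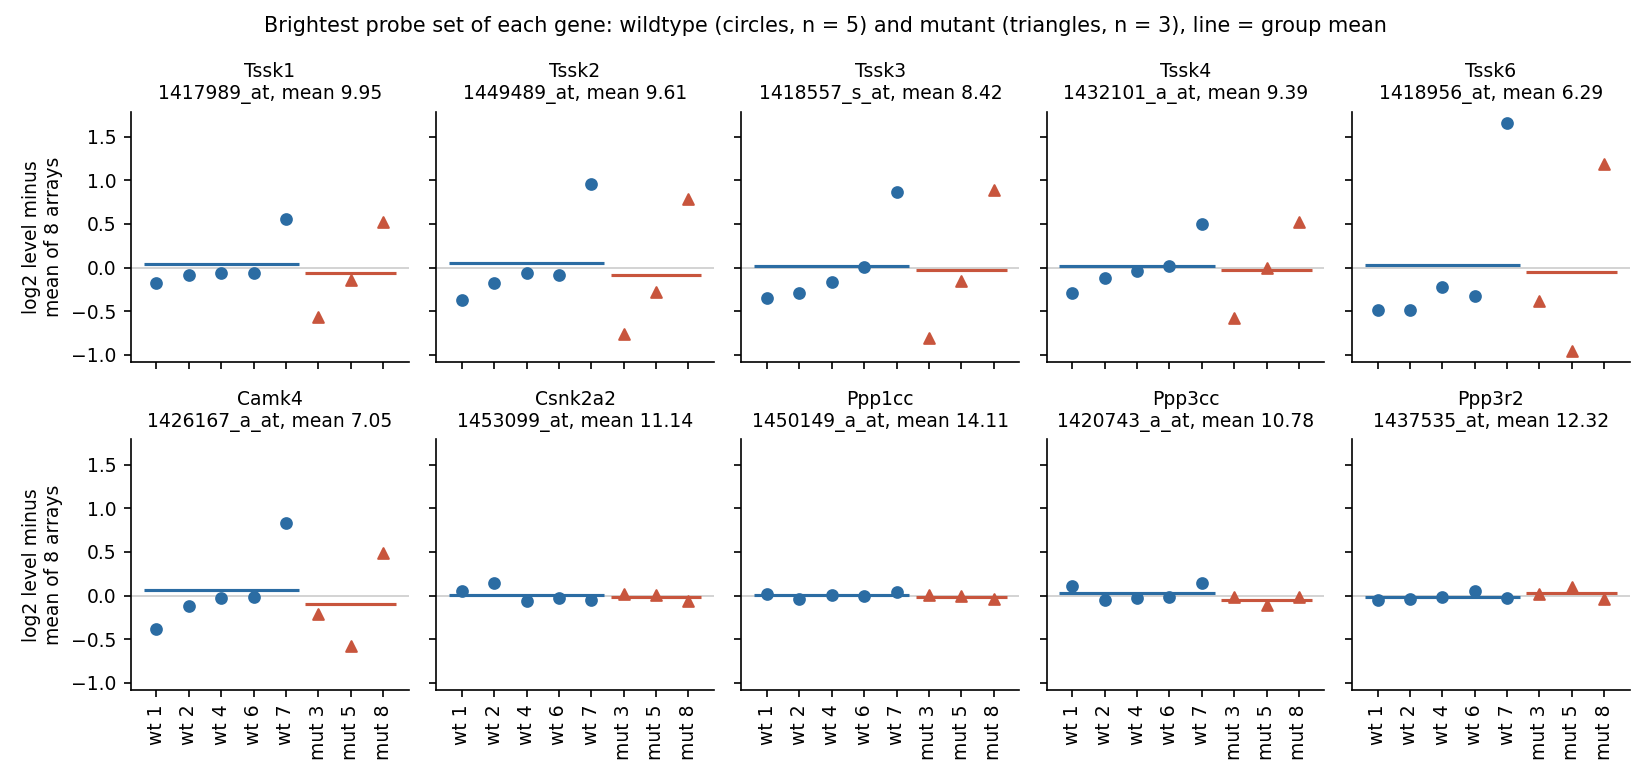
Log2 level of the brightest probe set of each of the 10 genes, minus its mean over 8 arrays (vertical axis), for 5 wildtype arrays (circles) and 3 mutant arrays (triangles), with group means as lines. In the TSSK genes and Camk4 the arrays of wildtype 7 and mutant 8 lie above the others, while Csnk2a2, Ppp1cc, Ppp3cc and Ppp3r2 stay close to 0 on every array.

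Camk4, a kinase of calcium signalling that phosphorylates protamine 2 in spermatids, joined the TSSK genes on its brightest probe set. 1426167_a_at read 6.67, 6.94, 7.03, 7.03 and 7.89 in wildtype and 6.84, 6.48 and 7.54 in mutant arrays. The pair stood above the rest by 0.97 within wildtype and 0.88 within mutant, mutant 5 was lowest, and the genotypes overlapped. The means, 7.11 ± 0.46 and 6.95 ± 0.54, differed by -0.16 (SE 0.28, interval -0.79 to 0.47, exact permutation p = 0.714, n = 5 and 3). The other 4 Camk4 probe sets lay between 3.49 and 5.28 and were not raised in the pair. Their genotype differences ran from -0.09 to 0.01.

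Csnk2a2, a casein kinase 2 subunit whose loss in mice gives round-headed sperm, was even across all arrays. 1453099_at read 11.19, 11.28, 11.07, 11.10 and 11.08 in wildtype and 11.15, 11.14 and 11.07 in mutant. The pair was not separate here, and the genotype difference was -0.02 (SE 0.07, interval -0.18 to 0.13). A second probe set, 1460646_at, differed by -0.002 (SE 0.06). The third, 1429302_at, read 8.44, 8.49, 8.43, 8.37 and 8.54 in wildtype and 8.43, 8.23 and 8.34 in mutant testis. Its difference of -0.13 (SE 0.07, interval -0.28 to 0.03) had the smallest unadjusted p of the 21 probe sets, 0.105, with an exact permutation p of 0.071.

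Phosphatase subunits were also even across the arrays, with a spread of 0.09 to 0.38 over their 5 probe sets against 0.16 to 0.32 for Csnk2a2. Ppp1cc, whose transcript is spliced into a somatic and a germ cell form of the protein, read 14.13, 14.08, 14.12, 14.11 and 14.16 in wildtype and 14.12, 14.11 and 14.07 in mutant arrays on 1450149_a_at. That is a spread of 0.09 over 8 arrays, near the top of the range of the arrays, where differences can be compressed. The means were 14.12 ± 0.03 and 14.10 ± 0.02, and they differed by -0.02 (SE 0.06, interval -0.15 to 0.11). Its second probe set, 1452046_a_at, read 9.97, 9.85, 9.78, 9.81 and 9.83 in wildtype and 10.03, 10.07 and 9.74 in mutant. Here mutants 3 and 5 were the highest arrays and mutant 8 the lowest, and the difference was 0.10 (SE 0.09, interval -0.10 to 0.30).

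Sperm calcineurin pairs the catalytic subunit of Ppp3cc with the regulatory subunit of Ppp3r2. Ppp3cc (1420743_a_at) read 10.88, 10.72, 10.75, 10.76 and 10.92 in wildtype and 10.76, 10.67 and 10.76 in mutant testis. Ppp3r2 (1437535_at) read 12.27, 12.28, 12.31, 12.38 and 12.30 in wildtype and 12.34, 12.42 and 12.28 in mutant. Neither set the pair apart from the rest. The genotype difference was -0.08 (SE 0.07, interval -0.24 to 0.08) for Ppp3cc and 0.04 (SE 0.06, interval -0.10 to 0.18) for Ppp3r2. A second Ppp3cc probe set, 1430025_at, differed by 0.07 (SE 0.09), and its pair was slightly above the rest (7.66 and 7.60 against 7.27 to 7.54).

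Over all 21 probe sets, 0 passed an adjusted p of 0.05 in limma, as did 0.0% of all 45101. At an unadjusted p under 0.05 the count was again 0 of 21, against 3.47% of all probe sets, and the genotypes were without overlap in 0 of 21, against 2.7% of all. The one-way comparison without shared variance called 0 after adjustment too. The mutant mean was the lower one in 16 of 21, against 48.5% of all probe sets, with a median difference of -0.06 against 0.003 over all. Probe sets of 1 gene share its transcripts, and the TSSK genes and Camk4 rise and fall together over these arrays, so the 16 are not separate observations. That direction rested on single arrays: without wildtype 7 the median was 0.01, and without mutant 3 it was 0.02.

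The precision differed between the groups of genes. For the brightest probe set of the 5 TSSK genes the 95% interval reached 0.52 to 1.27 to each side of the estimate, and for the phosphatase subunits 0.13 to 0.20.

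**Figure D2:**
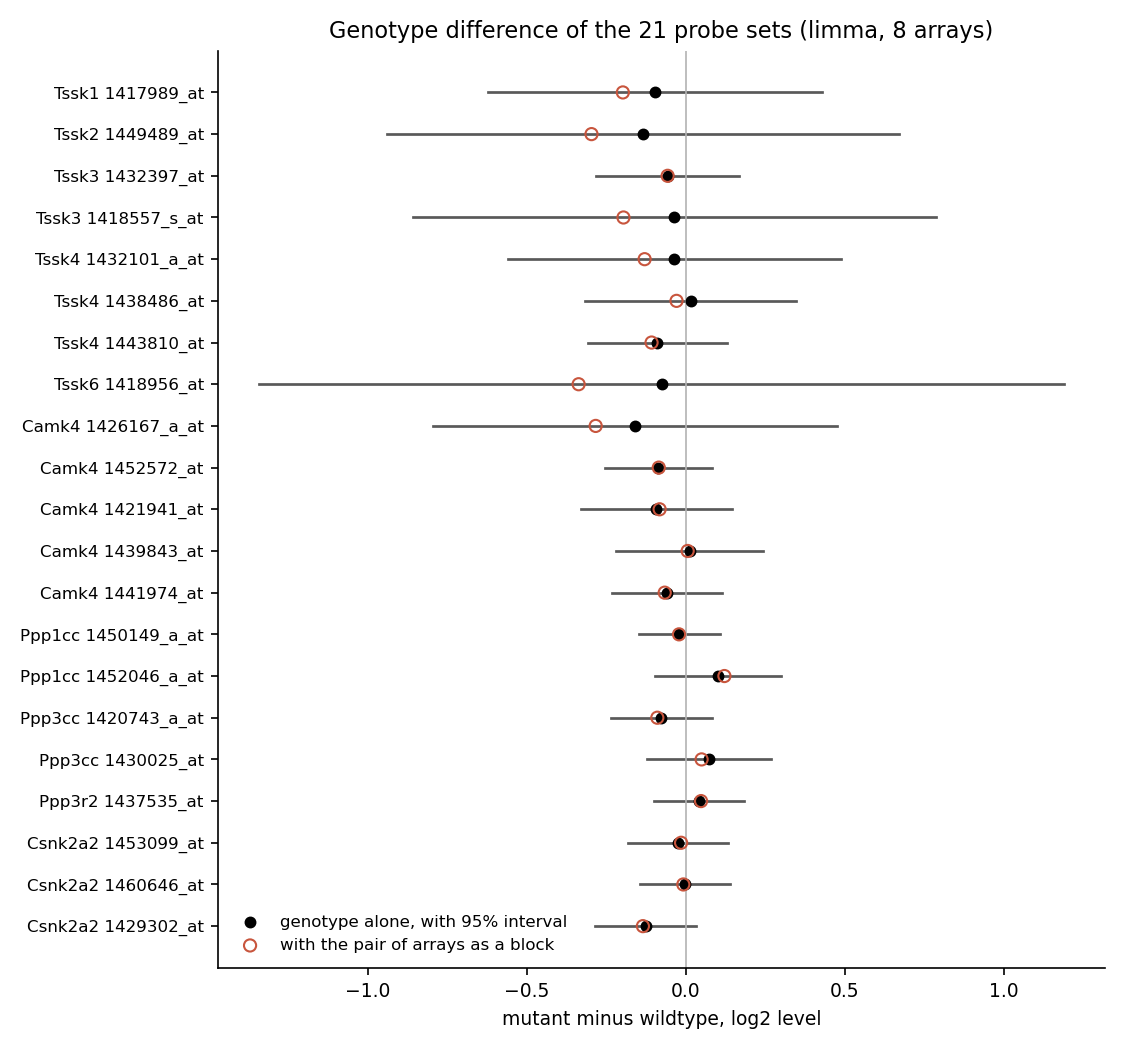
Mutant minus wildtype log2 level of each of the 21 probe sets (horizontal axis) from limma on 8 arrays, with 95% intervals (filled points), and from the fit that gives the pair its own term (open points). All intervals span 0, the widest being that of Tssk6 (-1.34 to 1.19), and the block moves the brightest probe set of each of the 5 TSSK genes and of Camk4 towards lower levels in mutant testis, Tssk6 most (-0.08 to -0.34).

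With the pair as a block, which takes up the shift of those 2 arrays, the standard error fell and the estimate became more negative for the brightest probe set of each TSSK gene and of Camk4. Dim probe sets of these genes did not all follow, as with 1432397_at of Tssk3 (SE 0.10 in both fits, difference -0.06 in both). Tssk2 differed by -0.30 (SE 0.12, unadjusted p = 0.028 in limma), Tssk6 by -0.34 (SE 0.13, unadjusted p = 0.022) and Camk4 by -0.28 (SE 0.11, unadjusted p = 0.026). These were 3 of 21 probe sets at an unadjusted p under 0.05, against 5.86% of all. The probe set of Tssk6 is dim, and of the 13 members above the median level 2 passed. The 3 genes move together over these arrays and are not separate observations, and the pair in the block was itself found from these values. All 3 were lower in mutant testis, against 2.83% of all probe sets in that direction, and 0 were higher, against 3.03%. None passed after adjustment, the smallest adjusted p of the 21 being 0.849, and 1 probe set of all did (0.00222%). Spermatid markers moved with them, since 16 of 19 probe sets of the 12 marker genes were lower in mutant testis at an unadjusted p under 0.05 in the same fit, and the part of spermatid content in the 3 results was not tested. In bulk RNA fewer cells of a type and less RNA per cell cannot be told apart.

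Within the pair itself the mutant was below the wildtype by 0.47 for Tssk6, 0.35 for Camk4 and 0.17 for Tssk2, and above it by 0.02 for both Tssk3 (1418557_s_at) and Tssk4 (1432101_a_at). Among the other 6 arrays the mutant mean was below the wildtype mean by 0.29 for Tssk6, 0.26 for Camk4, 0.34 for Tssk2, 0.26 for Tssk1, 0.28 for Tssk3 and 0.19 for Tssk4. Without the pair, 2 of the 21 probe sets had an unadjusted p under 0.05 in limma, against 6.55% of all. They were Tssk2 (unadjusted p = 0.036 in limma) and 1452046_a_at of Ppp1cc, 0.20 higher in mutant testis (unadjusted p = 0.040). In these 6 arrays mutant 3 was lowest for 4 of the 5 TSSK genes and mutant 5 for Tssk6 and Camk4.

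Of the 21 probe sets, 8 had both wildtype 7 and mutant 8 above the other 6 arrays, against 8.6% of all probe sets, and 0 had both below, against 10.3%. The 8 were the brightest probe sets of Tssk1, Tssk2, Tssk3, Tssk4, Tssk6 and Camk4, the dim 1438486_at of Tssk4 and 1430025_at of Ppp3cc. Over the brightest probe sets of the 5 TSSK genes, wildtype 7 exceeded the other wildtype arrays by 0.61 to 2.04 and mutant 8 the other mutants by 0.81 to 1.85. Over the 8 probe sets of the phosphatase subunits and Csnk2a2 the same quantities were -0.08 to 0.24 and -0.31 to 0.10. As the pair was defined from all probe sets, these included, its separation is a description and carries no test.

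Other transcripts rose in the same 2 arrays. All 12 spermatid marker genes were highest in the pair. Their mean level was 11.36 in wildtype 7 and 10.94 in mutant 8, and 8.78 to 9.60 in the other 6. Prm1, the protamine that packs sperm DNA, read 12.12 and 11.55 in the pair against 8.14 to 9.41 elsewhere, and Tnp1, the transition protein that precedes it, 12.28 and 11.44 against 8.19 to 9.41. Of 6 fat cell markers 5 were also highest in the pair, with a mean level of 7.29 and 7.28 against 5.43 to 6.11, and Adipoq, the fat cell hormone adiponectin, read 8.39 and 8.27 against 5.55 to 6.62. The part of spermatid number or of attached fat in the kinase levels was not tested. On main probe sets 1 of 9 spermatocyte markers was highest in the pair. Of the spermatogonia, Sertoli, Leydig, peritubular and epididymis markers none was on its main probe set, but 1 of all 13 spermatogonia probe sets was. The pair was lowest on the main probe set for 3 of 5 peritubular and 2 of 7 spermatogonia markers, against 10.3% of all probe sets. It was so for none in the other marker lists. Counting every probe set, the pair was lowest in 4 of 9 for peritubular, 4 of 13 for spermatogonia and 1 of 13 for Sertoli markers. Across the remaining 6 arrays the spermatid marker mean was lowest in mutant 3 (8.78), followed by wildtype 1 (8.96) and mutant 5 (9.15). The spermatocyte and fat cell marker means were also lowest in mutant 3 (10.77 and 5.43), and the other marker lists were lowest on other arrays. Sertoli, Leydig and peritubular marker means were highest in mutant 3 (9.65, 9.46 and 7.72). On their brightest probe sets Tssk1, Tssk2, Tssk3 and Tssk4 were lowest in mutant 3, but Tssk6 and Camk4 in mutant 5. What lay behind these low values was not tested.

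**Figure D3:**
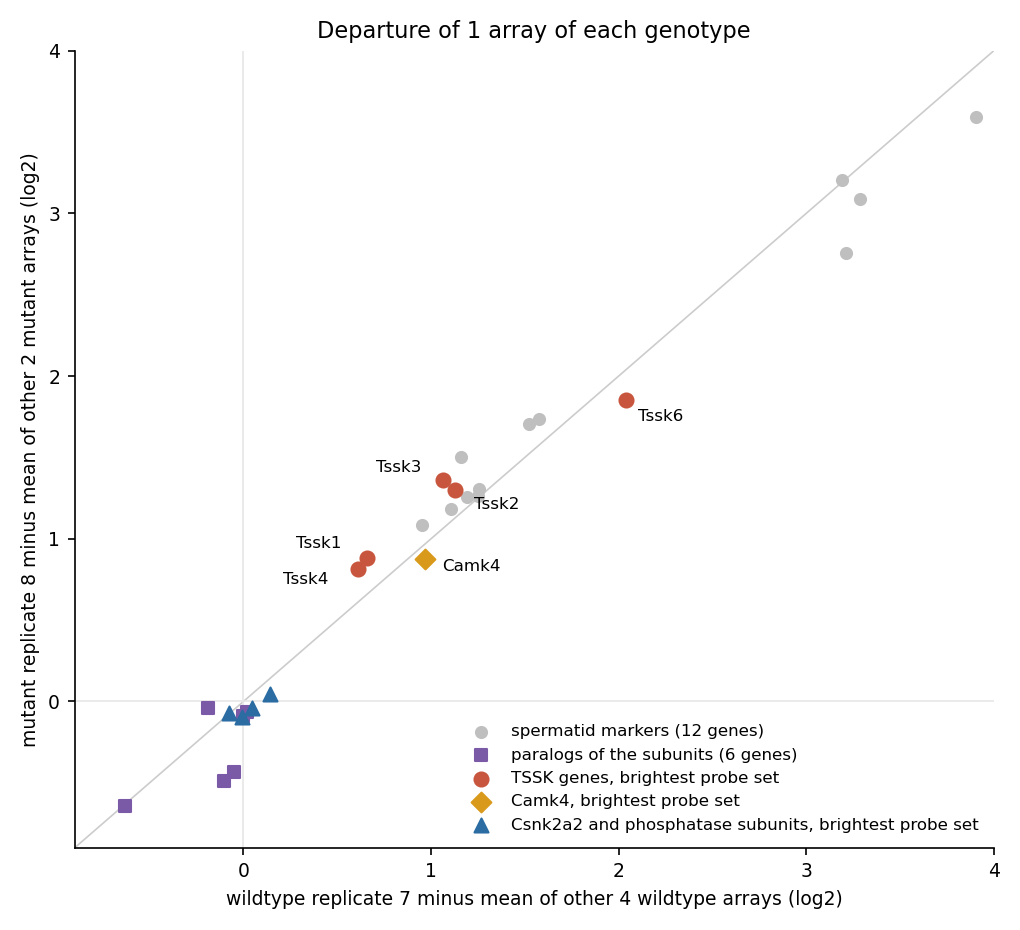
Level of wildtype 7 minus the mean of the other 4 wildtype arrays (horizontal, log2) against that of mutant 8 minus the mean of the other 2 mutants (vertical, log2), 1 point per gene, with the line of equal values. Members are plotted on their brightest probe set, and markers and paralogs on their main probe set. On their brightest probe sets the TSSK genes lie at 0.61 to 2.04 on the horizontal axis, among or below the 12 spermatid markers. Csnk2a2, the phosphatase subunits and their paralogs lie near or below 0. The main probe set of Tssk3, the dim 1432397_at, is not plotted and had values of -0.10 (wildtype 7) and 0.12 (mutant 8).

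**Figure D4:**
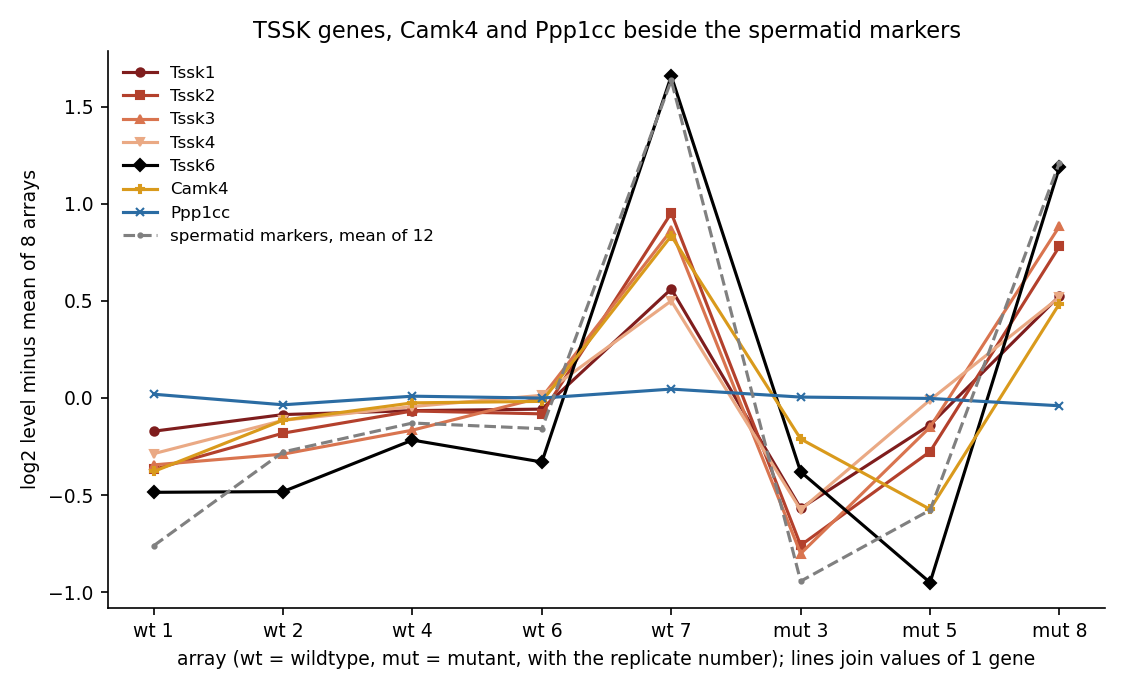
Log2 level minus the mean of 8 arrays (vertical) for the brightest probe set of 7 genes and for the mean of 12 spermatid markers (dashed), by array. The TSSK genes and Camk4 peak on wildtype 7 and mutant 8 with the markers, and Ppp1cc stays within 0.09 over all arrays.

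Genes whose profile came closest to that of a member were sought by the root mean square difference of centred levels over the 8 arrays, among 39018 named probe sets outside the 10 genes. For Tssk6, the kinase with the widest range, the nearest were 1700016P04Rik (0.11), Clmn (0.12), which encodes the calponin-domain protein calmin, and 2610528A11Rik (0.13), and 0 probe sets lay within 0.1. Levels were centred but not scaled, so a profile with a wide range has fewer neighbours within this fixed limit. The 0 therefore does not make the Tssk6 pattern rare, and the pair was above the other 6 arrays in 8.6% of all probe sets. In Clmn the pair read 7.72 and 7.10 against 5.27 to 5.94. For Ppp3cc (1420743_a_at), the phosphatase subunit with the widest range on its main probe set (0.25), the nearest were Vars2 (0.02), Fam118a (0.03) and Agpat3 (0.03), but 6267 probe sets lay within 0.1, so its flat profile picks out no small group.

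Partners and paralogs of the 10 genes were examined as lists. Among 7 TSSK partners (18 probe sets) 0 probe sets passed an unadjusted p under 0.05, with or without the block, and the median difference was -0.03. Tsks, a substrate of TSSK1 and TSSK2, averaged 7.93 ± 0.17 in wildtype and 7.94 ± 0.23 in mutant, and its pair (8.16 and 8.18) was above the other arrays (7.70 to 7.98), as with the kinases but by less. In the pair, 3 of these 7 genes were highest on their main probe set, against 8.6% of all probe sets. They were Tsks, Tsacc (a small TSSK-binding co-chaperone) and Odf2.

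Somatic paralogs of the sperm phosphatases did not differ between genotypes beyond their error. Ppp3ca (1438478_a_at) differed by 0.03 (SE 0.08), Ppp3cb (1433835_at) by 0.04 (SE 0.08) and Ppp3r1 (1433591_at) by 0.05 (SE 0.11). Ppp1ca (1460165_at) differed by 0.09 (SE 0.12), and it was lowest in mutant 8 (10.38 against 10.54 to 10.95). The probe sets of Ppp1cb (1431328_at, difference -0.31, SE 0.30) and Csnk2a1 (1453427_at, difference -0.08, SE 0.08) were dim.

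In the wider calcineurin list (12 genes, 38 probe sets) 2 probe sets were higher and 1 lower at an unadjusted p under 0.05, against 1.76% and 1.7% of all probe sets, with a median of 0.006. With the block the counts were again 2 and 1. Rcan3, an inhibitor of calcineurin, averaged 6.07 in wildtype and 6.23 in mutant testis on the dim 1434027_at. The difference was 0.16 (SE 0.07, unadjusted p = 0.037 in limma), without overlap of the genotypes. Its other probe set, 1450450_at, did not reach an unadjusted p under 0.05 in limma. Nfatc1, a transcription factor activated by calcineurin, differed by 0.19 (SE 0.07, unadjusted p = 0.015 in limma) on the dim 1428479_at and not on its main probe set, 1417621_at (unadjusted p = 0.706). Nfatc2 (1439205_at, difference -0.21, unadjusted p = 0.034 in limma), named after its value was seen, overlapped between genotypes. Adjusted p was 1.0 for each.

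The calmodulin and calmodulin kinase list (9 genes with a probe set, 30 probe sets) had 1 probe set higher and 0 lower at an unadjusted p under 0.05, against 1.76% and 1.7% of all, and the same counts with the block. It was 1424476_at of Camkk2, the kinase that activates CAMK4, with a difference of 0.21 (SE 0.08, unadjusted p = 0.020 in limma), on a dim probe set (4.03 in wildtype, 4.24 in mutant). The main Camkk2 probe set, 1455401_at, had an unadjusted p of 0.151. Among 11 further genes of protein phosphatase 1 (22 probe sets) and 2 of casein kinase 2 (2 probe sets) 0 had an unadjusted p under 0.05 in either direction. With the block 1 of the 22 was lower, against 2.83% of all, Ppp1r42 (1424977_at, difference -0.21, unadjusted p = 0.015 in limma), named after its value was seen, and 0 of the 2 passed. The pair was highest on the main probe set of 4 of the 11 protein phosphatase 1 genes, against 8.6% of all probe sets. The same held for 1 of the 12 calcineurin, 0 of the 9 calmodulin and 0 of the 2 casein kinase 2 genes.

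Of 15 other kinases and phosphatases of the testis (25 probe sets) 1 was lower and 0 higher at an unadjusted p under 0.05, against 1.7% and 1.76% of all. It was Stk31 (1454138_a_at), a germ cell kinase with a Tudor domain, named after its value was seen, with a difference of -0.32 (SE 0.10, unadjusted p = 0.011 in limma, adjusted p = 1.0) and genotypes that overlapped. With the block 2 were lower, against 2.83% of all, Stk31 and the testis kinase Tesk2 (1426546_at, difference -0.20, unadjusted p = 0.040 in limma), also named after its value was seen. In 7 of these 15 genes the pair was highest on the main probe set, against 8.6% of all probe sets. Among them were the phosphatases Dusp21 (7.47 and 7.12 against 5.66 to 6.07) and Dusp13 (10.55 and 10.57 against 9.14 to 9.78), 2 examples chosen after their values were seen.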

How the data were processed

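Testis RNA of 5 wildtype and 3 Ctcfl mutant samples was measured on 1 Affymetrix array each, with groups and replicate numbers from the sample titles. The authors processed the scans with background correction by RMA and quantile normalisation, and deposited a log2 level for each of 45101 probe sets (64 of them controls) and 8 arrays, used here as deposited. Sorted values of the arrays differed by at most 0.113. The annotation's genome build is not given in the sources used here. The deposited tables also hold the authors' own comparison columns (group means, log2 differences, fold ratios, p-values, t and B scores), which were not used. Ctcfl is not reported here.

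All probe sets were fitted with lmFit and eBayes (limma 3.58.1, R 4.3.3) with genotype as the only term, two-sided, adjusted by Benjamini-Hochberg over 45101. Exact permutation tests used scipy 1.17.1, and the rest Python 3.11.15, numpy 2.4.6, pandas 2.3.3 and matplotlib 3.10.9. Simulated data with known changes were used to test the fit. The number of arrays limits precision.

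Members and lists were chosen with earlier results of these data known. All members are named. The main probe set of a gene is one without an _s_ or _x_ suffix where it exists, then the highest mean level. "Brightest" means the highest mean level regardless of suffix. From the lists, the paralogs Ppp3ca, Ppp3cb, Ppp3r1, Ppp1ca, Ppp1cb and Csnk2a1, Tsks, the markers Prm1, Tnp1 and Adipoq, and list genes with an unadjusted p under 0.05 and no overlap were named. A dim probe set is one below the median level of 6.43. Lists held no probe set for Calm2, Camk2g, Hormad1, Nanos3, Hsd3b6, Insl3 and Plin1. Alternatives were each array left out, the pair left out or as a block, dim probe sets removed, median centring, repeated quantile normalisation, an offset of 64 on the linear scale, array weights, a variance for each probe set alone (one-way comparison), a robust prior with an intensity trend, other probe sets of a gene, 1 probe set per gene and an adjusted threshold of 0.1.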

Additional observations from a re-analysis of the deposited data

Results flagged for a closer look

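In 4 of the 21 probe sets the array of wildtype replicate 7 lay far above the other 4 wildtype arrays, measured as its gap to the nearest array over the range of the group. Tssk1 read 10.51 there, with the nearest array at 9.89 (gap over range 0.845). Tssk2 read 10.56 against 9.54 (0.772), Tssk3 on 1418557_s_at read 9.28 against 8.42 (0.712), and Tssk6 read 7.94 against 6.07 (0.875). For independent groups such a gap would come in about 1 of 20, or 1.05 of the 21. That rate is no yardstick here, because the probe sets move together and are not independent. Wildtype 7 had also been found to stand apart from these same values, so the 4 are a description and carry no test. The share of all probe sets with such a gap was not counted. The 3 mutant arrays were too few for the same measure. Spermatid and fat cell markers were also high on this array, and their part in the 4 values was not tested.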

How the results depend on the processing

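The study's text calls the animals littermates, but no label gives the litter of a sample, so no paired analysis was possible. Replicate numbers run through both genotypes and name no pairs. No member passed an adjusted p of 0.05 under any of 18 alternative fits. The smallest adjusted p of a member was 0.761, leaving aside the fit with 1 probe set per gene, in which 0 probe sets passed. Over all probe sets the adjusted count was 0, or 1 with the pair as a block, and 0 to 0 with single arrays left out. The unadjusted count of 1564 became 2956 without the pair, 2644 with the block, 707 above the median level, 721 with 1 probe set per gene, and 1220 to 2649 with single arrays left out (2649 without mutant 8). The member count at an unadjusted p under 0.05, 0 of 21, became 2 without the pair, 3 with the block and 1 with the offset (Csnk2a2 1429302_at, unadjusted p = 0.049 in limma), and 0 to 1 with single arrays left out (Ppp1cc 1452046_a_at without mutant 8). The members' median of -0.06 became -0.12 without the pair and -0.13 to 0.022 with single arrays left out, turning positive without wildtype 7 (0.01) or mutant 3 (0.022). The TSSK median of -0.07 ran from -0.35 to 0.18, turning positive without the same arrays (0.07 and 0.18).

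Of the 21 differences, 8 kept their sign in every alternative fit and 13 turned in at least 1, all without a call. The fit with 1 probe set per gene and the other probe sets of a gene are not in this count. Ppp3cc 1420743_a_at (-0.077) is among the 8, although the other Ppp3cc probe set, 1430025_at, had the opposite sign (0.073). With single arrays left out, Tssk1 ran from -0.39 to 0.16, Tssk2 from -0.57 to 0.20, Tssk3 from -0.11 to 0.029 (1432397_at) and -0.49 to 0.35 (1418557_s_at), Tssk4 from -0.31 to 0.24 (1432101_a_at), -0.14 to 0.20 (1438486_at) and -0.17 to 0.022 (1443810_at), Tssk6 from -0.69 to 0.38, Camk4 from -0.45 to 0.078 (1426167_a_at) and -0.044 to 0.11 (1439843_at), and Csnk2a2 from -0.042 to 0.0090 (1453099_at) and -0.031 to 0.050 (1460646_at). Without the pair the sign turned for Tssk4 1438486_at (-0.10), Camk4 1439843_at (-0.032) and Ppp1cc 1450149_a_at (0.0029). Tssk4 1438486_at also turned with the block (-0.029) and array weights (-0.013). Repeated quantile normalisation turned Ppp1cc 1450149_a_at (0.0050) and Csnk2a2 1460646_at (0.0067). Another probe set of the same gene gave 0.015 for Tssk4, 0.012 for Camk4, 0.10 for Ppp1cc and 0.073 for Ppp3cc. The causes were not tested.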
